A study of Mus musculus with 4 samples.

Results

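Granzymes are serine proteases, and perforin is the pore-forming protein that works with them. The 10 genes described here are Gzma, Gzmb, Gzmc, Gzmd, Gzme, Gzmf, Gzmg, Gzmk, Gzmm and Prf1, out of 32289 features counted in each cell. They were chosen by name after an earlier look at measured values of these libraries, in which Gzme stood out in an epithelial cluster, so the levels of Gzme in epithelial cells are a description and carry no test. All 10 were found by symbol, and 9 had at least 1 UMI (unique molecular identifier, a count of captured transcripts) in a kept cell. Gzmg had none in any library.

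The cells came from lung tumours of mice whose genotype was KrasFSF-G12D, p53frt, Rosa-FSF-CreERT2 and Hnf4aflox, and every group carried all of these alleles. Tumours were started by intubation with an adenovirus expressing FlpO from a surfactant protein C promoter (mSPC-FlpO). At 10 weeks the mice received either tamoxifen, which activates CreERT2, or vehicle, and single visible tumours were collected after a further 2 weeks. Each suspension was divided: 1 portion was sequenced as it was (before depletion), and CD45 and CD31 beads, which remove leukocytes and endothelium, were used on the other (after depletion). The 4 groups, vehicle before and after depletion and tamoxifen before and after depletion, hold 1 library each. The labels state neither the ages nor the number of animals or tumours pooled, and the libraries before and after depletion are portions of the same suspensions, not replicates. No p-value can therefore be given, and every interval is a 95% interval that covers counting error only.

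The libraries held 6558 to 7867 barcodes and 92644997 to 144994771 UMIs. After filtering, 6111 to 7358 cells per library were kept, with medians of 9302 to 17733 UMIs per cell, and pairs of libraries shared 10 to 18 barcodes. Hnf4a in epithelial cells was 57.4 and 55.0 CPM (UMIs scaled to a class total of 1e6) in the vehicle libraries, before and after depletion, and 86.8 and 82.9 CPM in the tamoxifen libraries. The count was thus higher in the libraries labelled with tamoxifen, which activates Cre on the floxed Hnf4a. Loss of Hnf4a was not tested. The labels do not give the floxed exons, and a 3′ count need not report their loss. Directions below therefore belong to the libraries labelled tamoxifen and vehicle, not to loss of Hnf4a. Natural killer (NK)-like cells numbered 133 in the vehicle and 90 in the tamoxifen library before depletion, T cell-like cells 828 and 558, and neither class had a cell in the libraries after depletion.

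Cytotoxic lymphocytes store granzymes in secretory granules and release them onto a target cell together with perforin, which lets them enter. Granzyme B, encoded by Gzmb, cleaves its substrates, such as Bid, after aspartate, whereas granzymes A and K (Gzma, Gzmk) are tryptase-like. In the mouse Gzmb lies at 1 end of a cluster of related protease genes that also holds Gzmc, Gzmf, Gzmn, Gzmg, Gzmd and Gzme, the neutrophil protease cathepsin G (Ctsg), and the mast cell and basophil proteases Mcpt8, Mcpt4, Mcpt2, Mcpt9, Mcpt1, Cma2 and Cma1.

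This cluster spans chr14:55941451-56262260 (GRCm38), a stretch of 320.8 kb with 15 protein-coding genes. Gzme is at chr14:56117626-56120625, Gzmd at chr14:56129556-56132608, Gzmc at chr14:56231441-56234656 and Gzmb at chr14:56258838-56262260, all on the minus strand. Gzma (chr13:113093825-113100981, minus strand) and Gzmk (chr13:113171608-113225908, minus strand) are neighbours on another chromosome. Prf1 (chr10:61297833-61304680) and Gzmm (chr10:79689020-79695261) lie on the plus strand of a further one.

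The promoters of 4 genes of the cluster are shown because these genes were found in different cells: Gzme in epithelial cells, Gzmb in NK-like and T cell-like cells, Gzmc in single lymphocytes, and Gzmd, the closest in sequence to Gzme, nearly nowhere. Each line gives the 250 bases before the RefSeq start site (GRCm38.p6, minus strand), at chr14:56120626-56120875 for Gzme, chr14:56132594-56132843 for Gzmd, chr14:56234658-56234907 for Gzmc and chr14:56262335-56262584 for Gzmb. Capitals mark matches, on either strand, to a Runx site (TGTGGT), an AP-1 site (TGANTCA) or the core of a cAMP response element (CRE, TGACG).
Gzme: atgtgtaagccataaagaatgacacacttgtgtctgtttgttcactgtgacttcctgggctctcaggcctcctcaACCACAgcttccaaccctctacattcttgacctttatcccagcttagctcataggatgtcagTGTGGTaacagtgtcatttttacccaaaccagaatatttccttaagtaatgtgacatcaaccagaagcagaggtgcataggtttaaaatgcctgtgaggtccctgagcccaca
Gzmd: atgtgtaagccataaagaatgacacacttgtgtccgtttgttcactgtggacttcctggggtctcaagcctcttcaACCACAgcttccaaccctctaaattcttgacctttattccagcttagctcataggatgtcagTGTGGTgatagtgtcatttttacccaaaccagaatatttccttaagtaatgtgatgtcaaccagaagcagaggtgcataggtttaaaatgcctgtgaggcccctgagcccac
Gzmc: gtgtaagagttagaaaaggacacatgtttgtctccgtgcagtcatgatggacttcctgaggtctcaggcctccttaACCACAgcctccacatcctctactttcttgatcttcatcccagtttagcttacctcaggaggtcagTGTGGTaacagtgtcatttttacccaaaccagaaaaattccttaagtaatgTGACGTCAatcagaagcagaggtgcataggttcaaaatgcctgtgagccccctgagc
Gzmb: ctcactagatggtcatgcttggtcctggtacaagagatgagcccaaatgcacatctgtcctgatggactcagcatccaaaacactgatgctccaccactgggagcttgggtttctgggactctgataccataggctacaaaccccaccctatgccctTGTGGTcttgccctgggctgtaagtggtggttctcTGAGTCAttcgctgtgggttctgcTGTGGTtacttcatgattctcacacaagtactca

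Over the 300-base windows that run to 50 bases past the start site, Gzme and Gzmd were identical at 281 of 299 aligned bases (94.0%). Gzme and Gzmc were identical at 88.4%, and Gzme and Gzmb at 70.1% of 207 aligned bases. The windows of Gzme, Gzmd, Gzmc and Gzmb each held 2 Runx matches, a motif with a match in 16.8% of the 32851 mouse promoters of that length. Gzmb alone of the 4 had an AP-1 match (7.81% of all promoters) and a STAT match (TTCNNNGAA, 8.30%), the latter past its start site and outside the bases shown. Gzmc had 2 overlapping CRE core matches and Gzmb 1 past its start site, and Gzme and Gzmd had none (20.8% of all promoters). No match was found in these 4 windows for a T-box motif (GGTGTNA, 10.2% of all promoters), a CCAAT box (CCAAT, 37.4%) or a TATA box (TATAAA, 13.6%). These matches describe letters in the windows and not sites that were bound.

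NK-like cells held most of the Gzma, Gzmb and Prf1 of the tumours. Gzma reached 9085 CPM (8845 to 9329) in the vehicle library and 9055 CPM (8744 to 9374) in the tamoxifen library. Prf1 was 1774 CPM (1669 to 1884) and 1744 CPM (1609 to 1888). Gzmb was 1493 CPM (1397 to 1594) and 1156 CPM (1047 to 1274). Of the 6148 Gzma UMIs in kept cells of the vehicle library before depletion, 5459 lay in NK-like cells, as did 897 of 1240 Gzmb UMIs and 1066 of 1357 Prf1 UMIs. In the tamoxifen library the same class held 3203 of 3322 Gzma, 409 of 806 Gzmb and 617 of 795 Prf1 UMIs. The name of the class was checked against its markers: the NK receptor Ncr1 was seen in 95.5% and 84.4% of these cells, and the T cell receptor component Cd3e in 0% and 2.22%. Another such component, Cd3g, was at 1.66 CPM in the vehicle and 62.2 CPM in the tamoxifen library, and its part in the results of this class was not tested.

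The 3 transcripts were usually found in the same NK-like cell. Gzma, Gzmb and Prf1 each had a UMI in 101 of 133 vehicle cells (75.9%) and in 63 of 90 tamoxifen cells (70.0%), while 4 and 1 cells had none of them. The median NK-like cell held 35 and 31.5 UMIs of Gzma, 7 and 6 of Prf1, and 4 and 2 of Gzmb. After each cell was thinned to 2000 UMIs, which left 121 and 74 cells, Gzma had a UMI in 92.6% (86.4 to 96.5) and 94.6% (86.7 to 98.5) of them (90.2% and 92.2% without thinning). The same share for Prf1 was 88.4% and 87.8%, and for Gzmb 76.0% and 71.6%. In B cell-like cells, which should lack it, thinned Gzma was seen in 0 of 409 and 0 of 188 cells, which allows shares of up to 0.733% and 1.60%. Median depths were 4897 and 4534 UMIs in B cell-like cells, and 5636 and 5890 in T cell-like cells.

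Gzma was spread more evenly over NK-like cells than Gzmb was. In the vehicle library 31 of the 133 cells were enough to hold 50% of the Gzma UMIs, 29 for Prf1 and 19 for Gzmb. In the tamoxifen library the numbers were 19, 21 and 11 of 90 cells. The highest single cell held 171 and 173 Gzma UMIs, and 50 and 34 Gzmb UMIs, in the vehicle and tamoxifen library. No class-wide level of these 3 genes therefore rested on 1 cell.

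**Figure D1:**
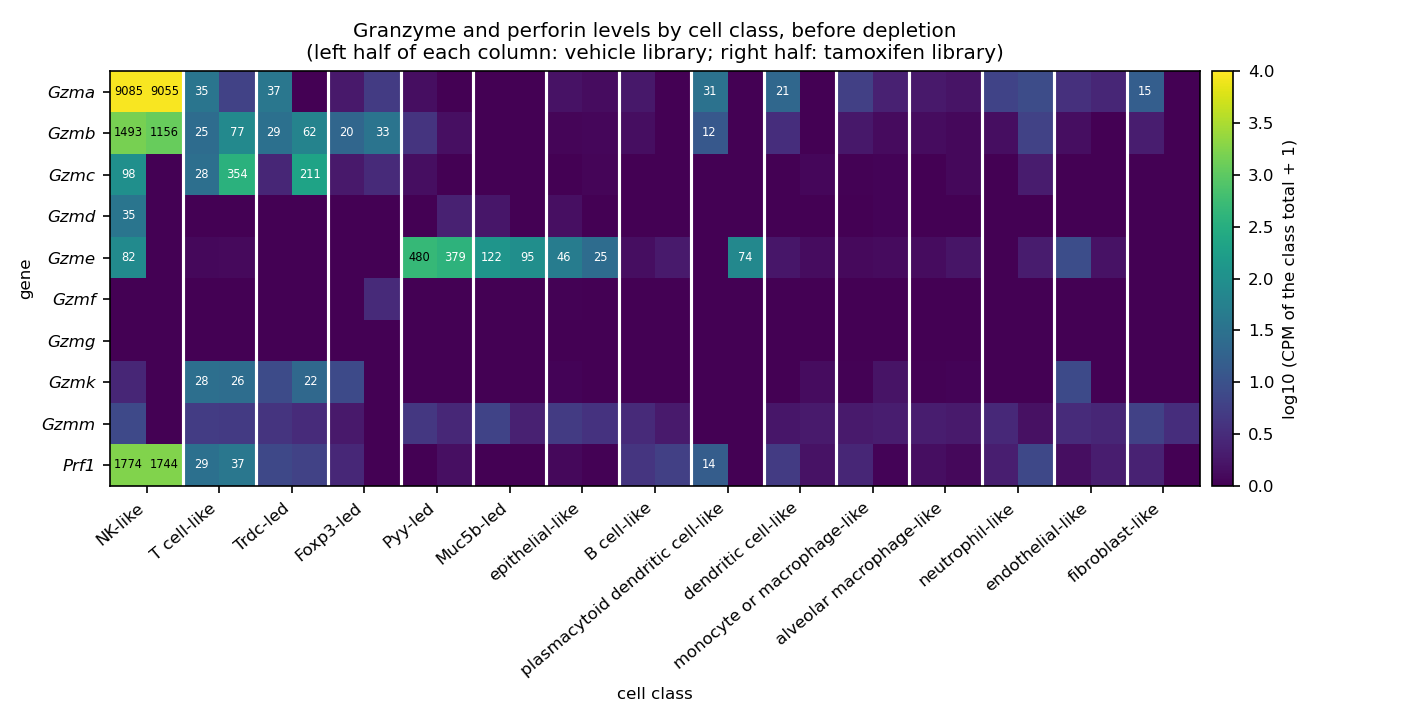
Level of each of the 10 genes (rows) in each cell class (columns) before depletion, with the vehicle library in the left part and the tamoxifen library in the right part of each column. Gzma, Gzmb and Prf1 are brightest in NK-like cells (Gzma at 9085 and 9055 CPM), and Gzme in the Pyy-led cluster of epithelial cells (480 and 379.5 CPM).

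T cell-like cells held the same transcripts in few cells each. Gzma had 178 UMIs in 27 of 828 vehicle cells (35.3 CPM, 30.3 to 40.9) and 19 UMIs in 6 of 558 tamoxifen cells (5.21 CPM, 3.13 to 8.13). Gzmb had 126 UMIs in 35 vehicle cells (25.01 CPM, 20.8 to 29.8) and 280 UMIs in 65 tamoxifen cells (76.7 CPM, 68.0 to 86.3). Gzmk, a marker of a memory-like T cell state, had 142 UMIs in 55 cells and 96 UMIs in 32 cells (28.2 and 26.3 CPM). Prf1 was at 29.0 and 37.3 CPM, and the granzyme M gene Gzmm at 4.17 and 3.84 CPM. Between the treatments Gzma and Gzmb thus went opposite ways in this class, and Gzmk, the neighbour of Gzma, stayed at nearly the same level.

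The comparison of treatments asked which of the genes stood at least 2-fold apart between the tamoxifen and the vehicle library, among genes at 10 CPM or more in either. A ratio here is the log2 of the tamoxifen level over the vehicle level, with 1 CPM added to each, and the intervals are computed without that addition, so for low genes the ratio can lie outside them. Of the 10 genes 5 reached 10 CPM in T cell-like cells. Gzmb and Gzmc were higher and Gzma lower in the tamoxifen library, where 1.70% of all 8485 genes at that level were apart in either direction. Gzmb differed by a log2 ratio of 1.58 (1.31 to 1.93) and Gzma by -2.55 (-3.53 to -2.08). Leaving out the cell with the most UMIs in each library, a choice made after the data were seen, gave 1.55 for Gzmb and -3.10 for Gzma. With the cells scored as doublets kept, Gzmb alone was apart. Gzmk (-0.10, -0.49 to 0.28) and Prf1 (0.35, 0.01 to 0.71) were under the 2-fold size. The median ratio of the 5 genes was 0.35, beside -0.07 for all genes tested in the class.

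At equal depth the Gzmb difference was also one of the number of cells. After thinning to 2000 UMIs, Gzmb had a UMI in 2.14% (1.25 to 3.40) of 795 vehicle cells and in 7.74% (5.59 to 10.4) of 517 tamoxifen cells, against 4.23% and 11.7% without thinning. For Prf1 the thinned shares were 5.03% (3.62 to 6.79) and 9.86% (7.43 to 12.8), and for Gzma 2.39% and 0.97%. The background in B cell-like cells was 0 for Gzmb, and 0.24% and 0.53% for Prf1. The UMIs were concentrated: 6 of 828 vehicle cells and 9 of 558 tamoxifen cells held 50% of the Gzmb UMIs of T cell-like cells.

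T cell-like cells were then gated on Cd8a, Cd8b1 and Cd4 UMIs. Cells with a Foxp3 UMI (9 vehicle and 9 tamoxifen cells) were first set apart. So were cells with a Trdc UMI and no Cd4 or Cd8 UMI (13 and 4). Cells in no gate are called ungated. Most Gzma UMIs of the vehicle library (132 of 178) lay in the Cd8 gate, and Gzmb was higher in the tamoxifen library both in that gate and in cells outside the gates. In the 213 vehicle cells with a Cd8 UMI and no Cd4 UMI, Gzma was at 95.4 CPM (79.8 to 113), with 132 UMIs in 13 cells, and in the 177 tamoxifen cells it was at 0.87 CPM, with 1 UMI. Gzmb in the same gate was at 39.7 CPM (29.9 to 51.7) in 14 cells, or 6.57%, and at 120 CPM (101 to 142) in 39 cells, or 22.0%. Gzmk in that gate was at 36.8 CPM (27.4 to 48.4) and 13.1 CPM (7.31 to 21.5), while Prf1 was level at 49.9 and 51.3 CPM. Eomes, a T-box regulator of memory and cytotoxic cells, was at 39.7 CPM (29.9 to 51.7) and 13.1 CPM (7.31 to 21.5) there. The median depth of the gated cells was 5975 and 6065 UMIs.

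Cells with a Cd4 UMI and no Cd8 UMI, 351 vehicle and 231 tamoxifen cells, had less of each. Gzmb was at 8.01 CPM (4.67 to 12.8) and 19.7 CPM (13.3 to 28.1), Gzma at 9.43 and 0.66 CPM, Gzmk at 27.3 and 39.4 CPM, and Prf1 at 18.4 and 30.8 CPM. Gzmk thus went the opposite way from the Cd8 gate, though its intervals overlapped (20.8 to 35.3 and 30.1 to 50.7 CPM). The 242 and 137 ungated cells had Gzmb at 28.9 CPM (20.5 to 39.5) and 150 CPM (123.5 to 180.5), with 39 and 112 UMIs, and Gzma at 17.8 and 22.8 CPM. Without the highest cell of each library, Gzmb was at 21.6 and 92.8 CPM in ungated cells and 26.8 and 109 CPM in the Cd8 gate.

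Gzmb was read apart in dividing T cell-like cells. With dividing cells taken as those with at least 2 UMIs of the 12 cycling genes, Gzmb was at 50.7 CPM (35.5 to 70.2) in 70 dividing vehicle cells and 20.8 CPM (16.7 to 25.6) in the other 758. In the tamoxifen library it was at 138 CPM (110 to 171) in 52 dividing cells and 64.7 CPM (55.9 to 74.4) in the other 506. The tamoxifen library was thus the higher on both sides of the division. Of the 83 UMIs in dividing tamoxifen cells, 44 lay in 1 cell. Without the highest cell of each, dividing and other cells were at 66.2 and 56.6 CPM in the tamoxifen library and at 34.4 and 16.7 CPM in the vehicle library, so the gap between dividing and other tamoxifen cells rested on that cell. Gzma was at 60.6 CPM in dividing and 31.2 CPM in other vehicle cells, and in the tamoxifen library at 0, a limit of 4.98 CPM, and 6.24 CPM. Median depths were 7766 and 9260 UMIs in dividing cells and 5555 and 5698 in the others. Their part in the result was not tested.

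In NK-like cells 6 of the 10 genes reached 10 CPM, and 3 of them, Gzmc, Gzmd and Gzme, were lower in the tamoxifen library. All genes tested were apart in 15.1% of cases in this small class. The 3 calls rest on 1 vehicle cell of 13332 UMIs, which held the 59 Gzmc, 21 Gzmd and 49 Gzme UMIs of the class (98.2, 35.0 and 81.5 CPM). The tamoxifen library had 0 of each, a limit of 8.48 CPM. Without the highest cell of each library no member was apart. That cell also had 11 Ncr1 and 12 Prf1 UMIs and no UMI of Epcam, Cd3e or Gzma.

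The abundant members differed little between the treatments in NK-like cells. Gzma had a log2 ratio of -0.00 (-0.07 to 0.06) and Prf1 of -0.02 (-0.17 to 0.12). Gzmb had one of -0.37 (-0.54 to -0.20), the opposite direction to T cell-like cells. It was -0.56 as a mean over cells and -0.70 in cells gated on marker UMIs. The median ratio over the 6 genes, -2.77, was set by the 3 genes of that 1 cell, beside -0.06 for all genes tested.

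**Figure D2:**
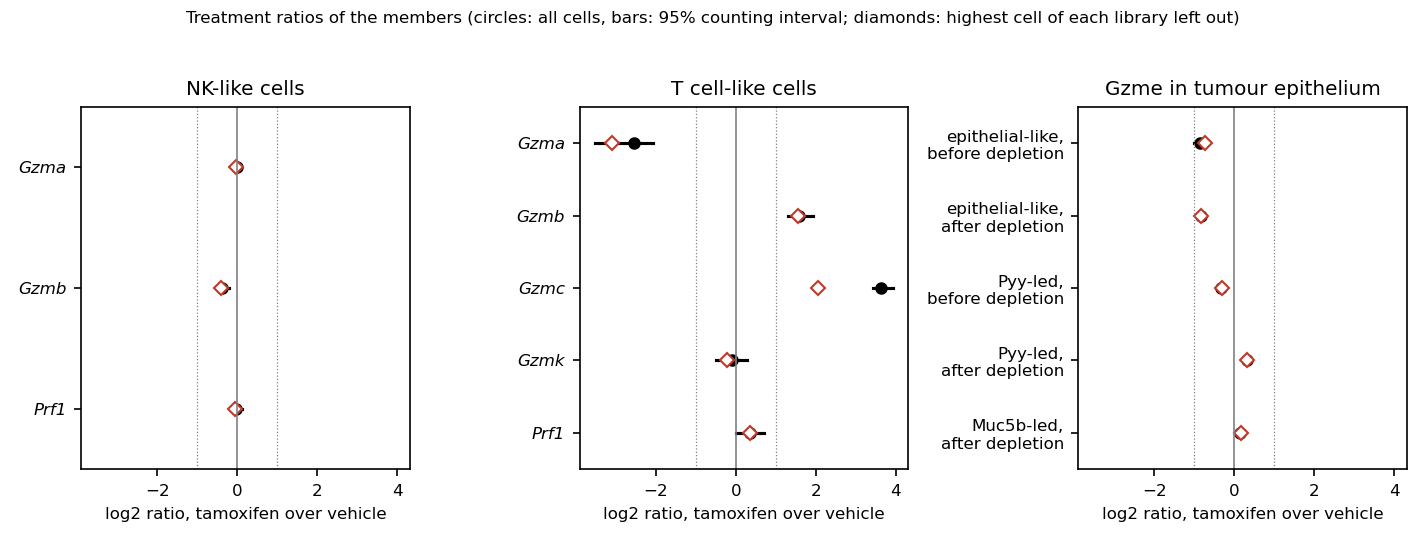
Log2 ratio of tamoxifen over vehicle in NK-like cells, in T cell-like cells and, for Gzme, in epithelial clusters (circles, with bars for the 95% counting interval) and with the highest cell of each library left out (diamonds). Gzmb stands at 1.58 in T cell-like and -0.37 in NK-like cells, and the Gzmc ratio of T cell-like cells moves from 3.64 to 2.06 without 1 cell per library.

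Gzmc was a transcript of single cells. In T cell-like cells it had 139 UMIs in 8 vehicle cells and 1293 UMIs in 7 tamoxifen cells (27.6 and 354 CPM), of which 117 and 1215 lay in 1 cell each. The log2 ratio of 3.64 (3.43 to 3.94) fell to 2.06 when the highest cell of each library was left out. The tamoxifen cell had 16504 UMIs, of which 7.36% were Gzmc, with 13 UMIs each of Gzmb and Ncr1 and none of Cd3d, Cd3e, Cd3g or Trac. Its Scrublet doublet score was 0.222, under the limit of 0.25. The vehicle cell had 7605 UMIs, 2 of Ncr1, 1 of Cd3g and none of Gzmb. These cells were grouped with T cells by the clustering, and their own T cell receptor transcripts were at or near 0. Another tamoxifen cell, with 66 Gzmc UMIs, had both 15 Ncr1 UMIs and 15 Cd3d UMIs. Of the 1293 tamoxifen UMIs, 1282 lay in 3 dividing cells, whereas 135 of the 139 vehicle UMIs lay in cells that were not dividing.

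The lymphocyte cluster led by Trdc, Il17a and Cd163l1 (154 vehicle and 80 tamoxifen cells), which was left unnamed, held little granzyme outside a few cells. Gzma had 88 UMIs in the vehicle library, 67 of them in 1 cell, and 0 in the tamoxifen library (37.5 CPM and a limit of 3.08 CPM). Gzmb was at 28.5 and 61.6 CPM, a log2 ratio of 1.08 (0.58 to 1.64) that became -0.21 without the highest cell of each library. Gzmc was at 1.70 and 211 CPM, with 123 and 82 of the 206 tamoxifen UMIs in 2 cells, both with Ncr1 UMIs and no Trdc UMI. Gzmk was at 7.24 and 21.6 CPM and Prf1 at 6.38 and 5.13 CPM. Gzmb, Gzmc and Gzmk were higher and Gzma lower in the tamoxifen library, where 8.53% of all genes tested were apart. Gzmb was at 37.0 CPM in dividing and 4.84 CPM in other vehicle cells, with median depths of 20826 and 6441 UMIs. In the tamoxifen library it was at 89.1 and 16.3 CPM, and the dividing cells were at 17.2 CPM without the 1 cell that held 44 of their 54 UMIs.

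In the cluster led by Foxp3, the regulator that defines regulatory T cells, Gzmb was at 20.1 CPM in 188 vehicle cells and 33.2 CPM in 82 tamoxifen cells. Its log2 ratio of 0.70 had an interval (-0.27 to 1.69) that spanned 0. Gzma there was at or under 3.91 CPM, and Prf1 had 2 and 0 UMIs.

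Genes that work with granzymes were read from lists chosen with earlier results known. Of the 13 genes for loading and releasing granules, all reached 10 CPM in both lymphocyte classes. None was apart between the treatments in T cell-like cells (median ratio -0.06, beside -0.07 for all genes). In NK-like cells, where 9.44% of all genes tested were lower, 1 of the 13 was lower. It was Lyst, a regulator of granule size, at 151 and 56.5 CPM (-1.41). The proteoglycan Srgn, which packs granzymes, was at 1335 and 1258 CPM in NK-like and 1317 and 1133 CPM in T cell-like cells. Nkg7, a granule membrane protein, was at 3195 and 3616 CPM in NK-like and 604.5 and 728 CPM in T cell-like cells.

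None of the 12 regulators of the cytotoxic programme was apart in NK-like or T cell-like cells. Tbx21, which drives Gzmb and Ifng expression, was at 90.7 and 77.8 CPM in T cell-like cells and 449 and 410 CPM in NK-like cells, and Runx3 at 171 and 169 CPM in T cell-like cells. Over the whole T cell-like class Eomes was level at 22.4 and 22.5 CPM. Of the 10 cytokine and cytokine receptor genes, 9 reached 10 CPM in each class. None was apart in T cell-like cells. In NK-like cells, where 5.71% of all genes tested were higher, 1 of the 9 was higher, the low Il12rb1 (4.99 and 14.1 CPM). The interleukin 2 and 15 receptor chain Il2rb was at 1230 and 780 CPM in NK-like cells (-0.66).

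Of 10 other lymphocyte effector genes, none was apart in T cell-like cells, where the nearest was the chemokine Ccl5 (1121 and 2036 CPM, 0.86). In NK-like cells 7 reached 10 CPM: the interferon gene Ifng was higher (201 and 461 CPM, 1.19) and Ltb lower (49.9 and 14.1 CPM, -1.75). Of all genes tested in that class, 5.71% were higher and 9.44% lower. Of the cycling genes, 5 of 6 at 10 CPM were lower in NK-like tamoxifen cells, where 9.44% of all genes tested were lower. Among them Mki67 was at 33.3 and 11.3 CPM. Only 6 vehicle and 2 tamoxifen NK-like cells counted as dividing, and their part in these calls was not tested. In T cell-like tamoxifen cells 1 of 4 was higher, Ccnb2 at 4.17 and 16.7 CPM, where 1.11% of all genes tested were higher. Of the 14 lymphocyte markers, 14 reached 10 CPM in T cell-like cells and none was apart. In NK-like cells 1 of 12 was higher, Cd3g (1.66 and 62.2 CPM), beside 5.71% of all genes tested.

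Granzyme inhibitors were found in the same cells. Serpinb9, which blocks granzyme B, was at 1147 and 1122 CPM in NK-like, 47.5 and 69.3 CPM in T cell-like and 41.9 and 32.2 CPM in epithelial-like cells. Serpinb6a was at 303 and 206 CPM in epithelial-like cells and 31.6 and 50.9 CPM in NK-like cells. No gene of the inhibitor list or of the 8 granzyme substrates was apart between the treatments in NK-like, T cell-like or epithelial-like cells. Bid, a granzyme B substrate, was at 7.23 and 5.58 CPM in epithelial-like cells before depletion.

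Gzme, in contrast to these lymphocyte genes, was an epithelial transcript in all 4 libraries. Its UMIs numbered 2671 (vehicle) and 1978 (tamoxifen) before depletion, and 14817 and 11921 after it. Clusters with all 8 epithelial markers held 96.7% and 94.8% of them before depletion and 99.7% and 99.97% after it. T cell-like cells had 1 Gzme UMI in each library before depletion. In these 11 clusters Gzma had 17 and 10 UMIs before depletion against 2584 and 1875 of Gzme, whereas NK-like cells had 5459 and 3203 of Gzma against 49 and 0 of Gzme.

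Of the 11 clusters 9 were named epithelial-like. The Pyy-led and Muc5b-led clusters were left unnamed because a mast cell or basophil marker, Mcpt8, and a plasmacytoid dendritic cell marker, Ly6d, stood among their leading 10 genes. Both had all 8 epithelial markers, and all 11 together are called epithelial-scored cells. Over the 9 named clusters the vehicle libraries had 46.4 CPM of Gzme (43.9 to 49.0) in the portion before depletion and 80.7 CPM (79.1 to 82.3) in the depleted one. The tamoxifen libraries had 25.3 CPM (23.5 to 27.1) and 44.8 CPM (43.6 to 46.1) in the same order. These named clusters held 49.0%, 63.9%, 38.0% and 41.6% of the Gzme UMIs of the vehicle library before and after depletion and of the tamoxifen library before and after depletion.

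The cluster led by Pyy, the gene of the gut hormone peptide YY, had the highest Gzme level of the clusters with over 20 cells in a library. The level was 480 CPM in 51 vehicle cells and 379.5 CPM in 53 tamoxifen cells before depletion, and 406 CPM in 414 and 502.5 CPM in 438 cells after it. A UMI was seen in 62.8%, 71.7%, 56.3% and 56.2% of these cells, and after thinning to 2000 UMIs in 29.4%, 30.2%, 28.8% and 30.7%. After depletion the Il24-led cluster had 186 and 116 CPM, the Muc5b-led 115 and 126 CPM, the Ttr-led 121 and 283 CPM and the Gm33055-led 104 and 47.9 CPM in the vehicle and tamoxifen library. The dividing Ube2c-led cluster had 35.8 and 25.02 CPM. At the low end were the Adarb2-led (7.90 and 3.88 CPM), the Scgb1a1-led (named for a club cell secretoglobin gene; 2.42 and 3.96 CPM) and the Rtkn2-led cluster (4.97 and 2.50 CPM). Of 11 vehicle cells in the small AU040972-led cluster, 1 held all 135 Gzme UMIs.

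**Figure D3:**
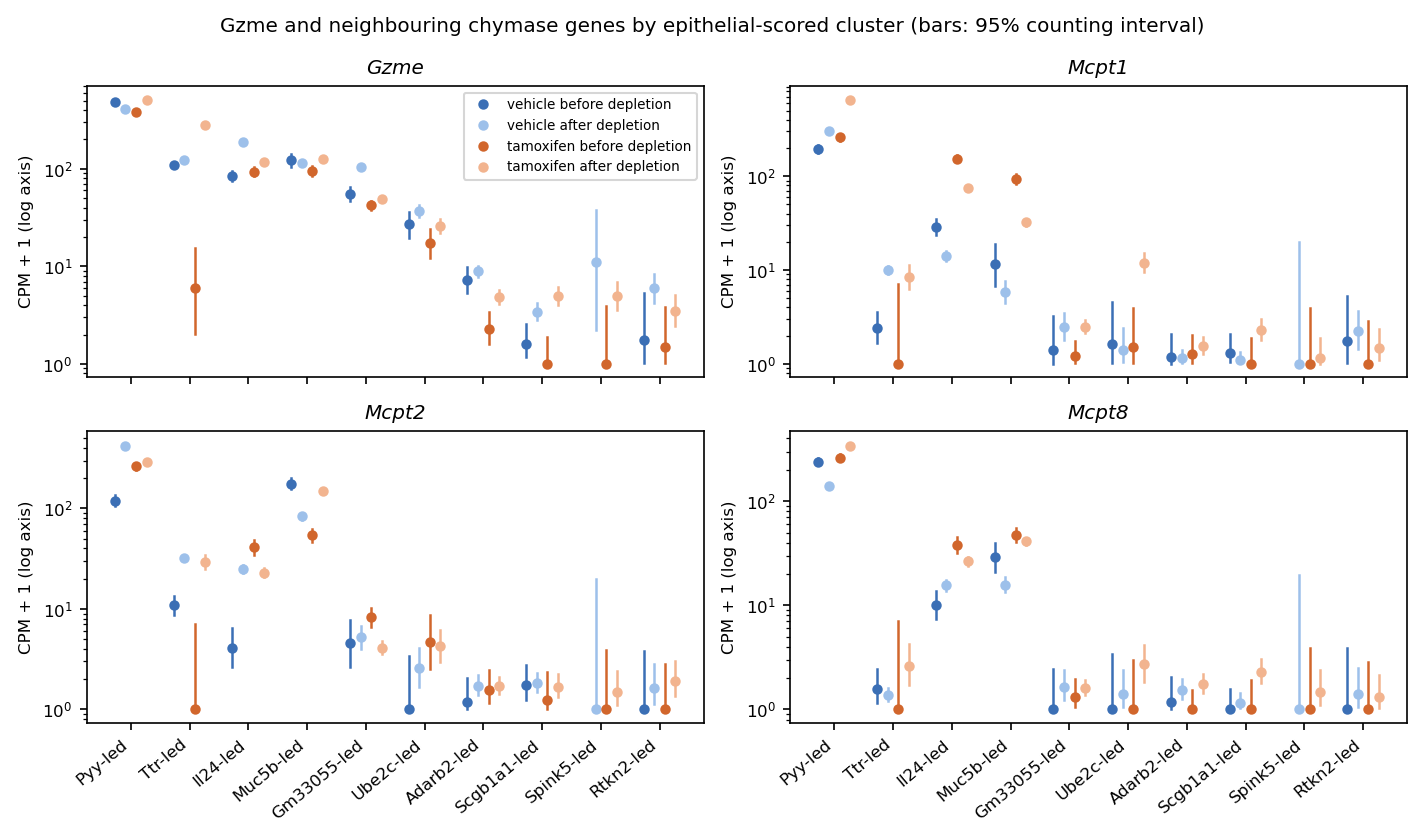
Level of Gzme, Mcpt1, Mcpt2 and Mcpt8 in each epithelial-scored cluster (CPM + 1, log axis) in the 4 libraries, with bars for the 95% counting interval. The Pyy-led cluster is high for all 4 genes (Gzme at 379.5 to 502.5 CPM), and the Scgb1a1-led and Rtkn2-led clusters are low in Gzme. Unlike Gzme, the Mcpt genes were not left out of the clustering, and Mcpt1 and Mcpt8 are among the leading genes of the Pyy-led cluster. Their levels there are therefore a description.

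Within a cluster Gzme UMIs were unevenly spread. Of the 1074, 6541, 1093 and 7106 epithelial-scored cells (vehicle before and after, tamoxifen before and after depletion), 12, 119, 14 and 76 cells held 50% of the Gzme UMIs, or 1.12%, 1.82%, 1.28% and 1.07%. The highest single cells held 206, 251, 155 and 230 UMIs. In the Pyy-led cluster 4 of 51, 20 of 414, 5 of 53 and 27 of 438 cells held 50%. High Gzme was thus a property of a small share of cells in every library, also within the cluster where it was highest.

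**Figure D4:**
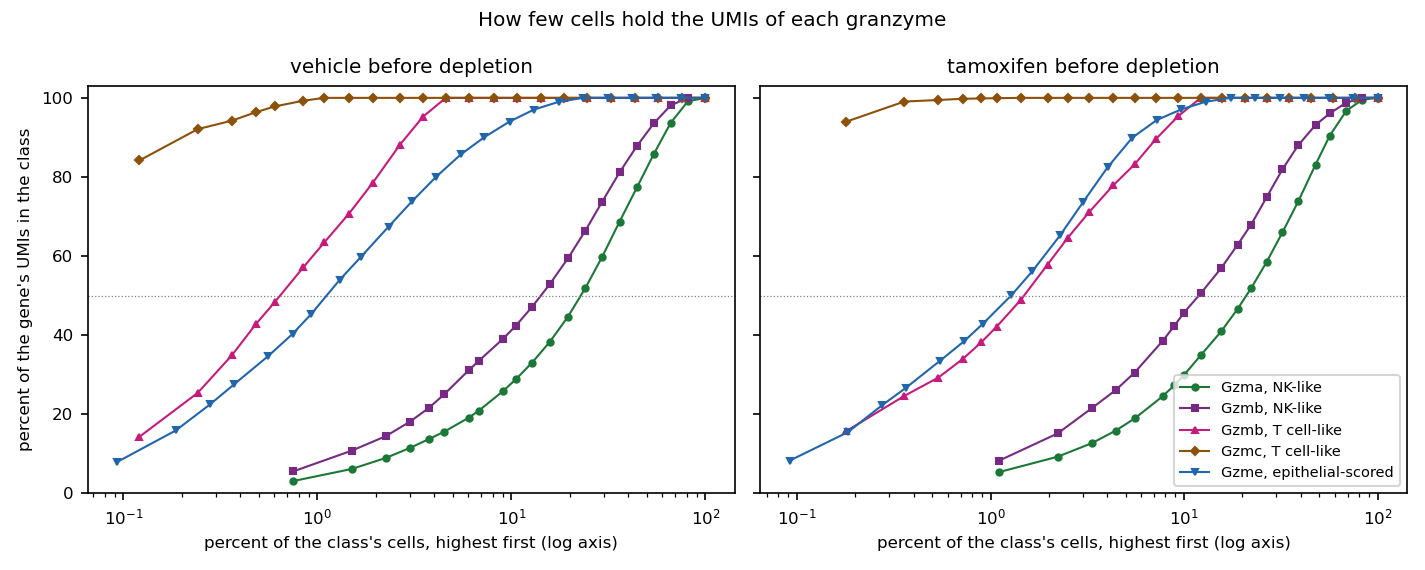
Cumulative percent of a gene's UMIs (vertical axis) against the percent of cells of its class, highest cells first (log axis). In the vehicle library before depletion 23.3% of NK-like cells held 50% of the Gzma UMIs, whereas 1.12% of epithelial-scored cells held 50% of those of Gzme.

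In the named epithelial-like class Gzme was lower in the tamoxifen libraries, but by less than 2-fold. The log2 ratio was -0.85 (-1.01 to -0.75) before and -0.83 (-0.90 to -0.80) after depletion. Gzme was the only member at 10 CPM there, and all genes tested were apart in 2.0% of cases before (188 of 9378) and 2.11% after depletion. Different clusters held much of the class in the 2 treatments: after depletion 1224 vehicle and 128 tamoxifen cells were Ttr-led, and 372 and 1468 were Gm33055-led. Of the vehicle Gzme UMIs of the class 4664 lay in the Ttr-led cluster, against 1392 in the tamoxifen library. Inside the clusters the direction was not uniform, as the levels above show: the tamoxifen library was higher in Ttr-led and lower in Gm33055-led and Il24-led cells after depletion. With the unnamed clusters counted in, a choice made after the data were seen, the ratios were -0.59 before and -0.28 after depletion.

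The Pyy-led cluster gave opposite directions in the 2 pairs of libraries, with -0.34 (-0.47 to -0.21) before and 0.31 (0.25 to 0.37) after depletion. No member was at least 2-fold apart in that cluster, where 7.02% of all genes tested were before and 2.53% after depletion. Since both pairs come from the same suspensions, this difference of direction shows how far such ratios moved between portions of 1 suspension. The Muc5b-led cluster after depletion had a ratio of 0.13 (0.01 to 0.25).

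Gzme-positive cells were deeper cells of epithelial character. A Gzme UMI was present in 214 (19.9%), 1614 (24.7%), 160 (14.6%) and 1135 (16.0%) of the epithelial-scored cells of the vehicle library before and after depletion and the tamoxifen library before and after depletion. Their median depth was 49498, 28714, 47802 and 24929 UMIs, against 21034, 15647, 26869 and 15683 in the Gzme-negative cells. The adhesion gene Epcam was at 882 to 976 CPM in the positive and 578 to 694 CPM in the negative cells. The summed level of the 14 lymphocyte markers was 59.1 against 36.3 CPM and 49.4 against 42.9 CPM before depletion. After depletion it was 11.5 against 5.47 CPM and 14.1 against 4.34 CPM, with 8 of the 14 genes at 0 in the positive cells of each library. Of the 10 members 2, 6, 6 and 4 were at 0 in the positive cells. Gzmd was at 1.28 and 1.94 CPM in the positive cells of the vehicle libraries and had no UMI in negative cells, levels too low for the size rule. Before depletion 7 of its 14 UMIs lay in 1 cell.

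By the rule for naming genes, the 10 genes with the largest minimum ratio of positive over negative cells were Mcpt8, Mcpt1, Mcpt2, Spp1, Agr2, Tpsab1, Lman1l, Anxa10, Tff1 and Srd5a1, of which the first 3 lie in the same gene cluster as Gzme. Of all genes tested, 4.13%, 1.95%, 2.49% and 2.23% were at least 2-fold higher in the positive cells of the 4 libraries. Mcpt8, a basophil protease gene, was at 57.6, 35.2, 94.4 and 135 CPM in positive cells against 0.19, 1.68, 3.62 and 3.61 CPM in negative cells. Spp1, the secreted phosphoprotein osteopontin, was at 777, 780, 350.5 and 725 CPM against 111, 112, 41.4 and 131 CPM. Tff1, a trefoil peptide of gastric mucus, was at 58.6, 108, 347 and 219 CPM against 6.83, 31.7, 14.6 and 18.2 CPM. The positive cells were chosen by Gzme UMIs and are deeper, so these are descriptions.

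Of the 9 other genes in the chymase and granzyme cluster, 3 were at least 2-fold higher in Gzme-positive cells in each library, Mcpt1, Mcpt2 and Mcpt8. These 3 were at 10 CPM or more in the positive cells of each library. Of all genes at that level, 4.13%, 1.95%, 2.49% and 2.23% were at least 2-fold higher. The 9 summed to 154, 221, 375 and 495 CPM in the positive and 7.40, 19.9, 8.60 and 32.2 CPM in the negative cells. With cells thinned to 2000 UMIs, Mcpt8 was seen in 14.8%, 7.88%, 20.9% and 21.6% of the cells that kept a Gzme UMI and in 0.21%, 0.63%, 1.15% and 1.09% of those that did not. For Mcpt2 the shares were 13.0%, 14.5%, 14.0% and 13.9% against 0.52%, 1.47%, 1.15% and 1.36%. The genes were thus seen together at equal depth as well, though each of the 3 was missing from most thinned Gzme-positive cells.

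Mcpt8 is a basophil protease gene, so 11 other genes of mast cells and basophils were read in the same cells. In the Gzme-positive cells of the 4 libraries 2, 3, 5 and 5 of the 11 were at 0, among them the IgE receptor gene Fcer1a in each, and the mast cell carboxypeptidase gene Cpa3 had 2, 1, 0 and 0 UMIs. The tryptase gene Tpsab1 was at least 2-fold higher in each library, and Cyp11a1 in the tamoxifen library before depletion. The 11 summed to 168, 192, 324 and 265 CPM in the positive and 115, 105, 201 and 194 CPM in the negative cells, most of it from the histidine decarboxylase gene Hdc. The mast cell or basophil-like class itself (14 vehicle and 6 tamoxifen cells) had Mcpt8 at 771 CPM and Gzmb at 814 CPM in the vehicle library and no Gzme UMI. Counts from the lists in these cells took the 2-fold size with no CPM minimum. The shares of all genes given above used 10 CPM and higher genes only, so they are no background for these counts. No share of all genes was computed without that minimum, so the counts that follow are description and are not read as results. The 13 granule genes of lymphocytes were apart in 0, 0, 0 and 1 case, with 0, 1, 0 and 1 of them at 0. Of the 6 inhibitors 0, 1, 0 and 0 were higher and 2, 2, 0 and 0 lower. No gene of the substrate or regulator list was apart. Of the cytokine receptor list 0, 0, 1 and 1, of the other effector list 1, 0, 1 and 1, and of the cycling list 2, 0, 0 and 0 genes were higher. In the tamoxifen library before depletion 1 effector and 1 cycling gene were lower. Of the lymphocyte markers 1, 0, 1 and 1 were higher and 0, 0, 1 and 0 lower.

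The treatment ratios of these neighbours differed from that of Gzme. In the Pyy-led cluster after depletion Mcpt1 was at 301 CPM in the vehicle and 644 CPM in the tamoxifen library (1.09, 1.04 to 1.16). Mcpt8 was at 138.5 and 336.5 CPM there (1.27, 1.19 to 1.37). Mcpt2 was at 417.5 and 286 CPM (-0.54, -0.61 to -0.48). Before depletion the ratios were 0.41, 0.12 and 1.14, and the Mcpt2 ratio became -0.03 without the highest cell of each library. The interval of Mcpt8 before depletion (-0.05 to 0.29) spanned 0, so of the 3 only Mcpt1 had intervals above 0 in both pairs. In the named epithelial-like class Mcpt1 was at 4.36 and 18.1 CPM before depletion (1.83) and 5.19 and 10.7 CPM after it (0.91). Mcpt2 there went opposite ways in the pairs, at 3.44 and 7.40 CPM before depletion (0.92, 0.76 to 1.47) and lower in the tamoxifen library after it (a ratio of -1.32). Of the other lists in that class, Bcl11b was lower in both pairs (16.3 and 5.58 CPM before depletion). Of all genes tested, 1.35% were lower before and 1.51% after depletion. Il18rap was higher after depletion (5.71 and 13.6 CPM), where 0.60% of all genes tested were higher. The granule, inhibitor, substrate and cycling lists had no gene apart there in either pair.

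The NK-like cells showed the other end of the cluster. Cma1, a mast cell chymase gene at the far end from Gzmb, was at 501 CPM (446 to 561) in 89 of 133 vehicle cells and 614 CPM (535 to 701) in 60 of 90 tamoxifen cells. Mcpt1, Mcpt2, Mcpt4 and Ctsg had at most 2 UMIs each in these cells, and Mcpt8 none. Along the 320.8 kb, NK-like cells thus had transcripts from both ends and, apart from 1 cell, none from Gzmc to Gzme. Epithelial-scored cells had them from the middle.

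**Figure D5:**
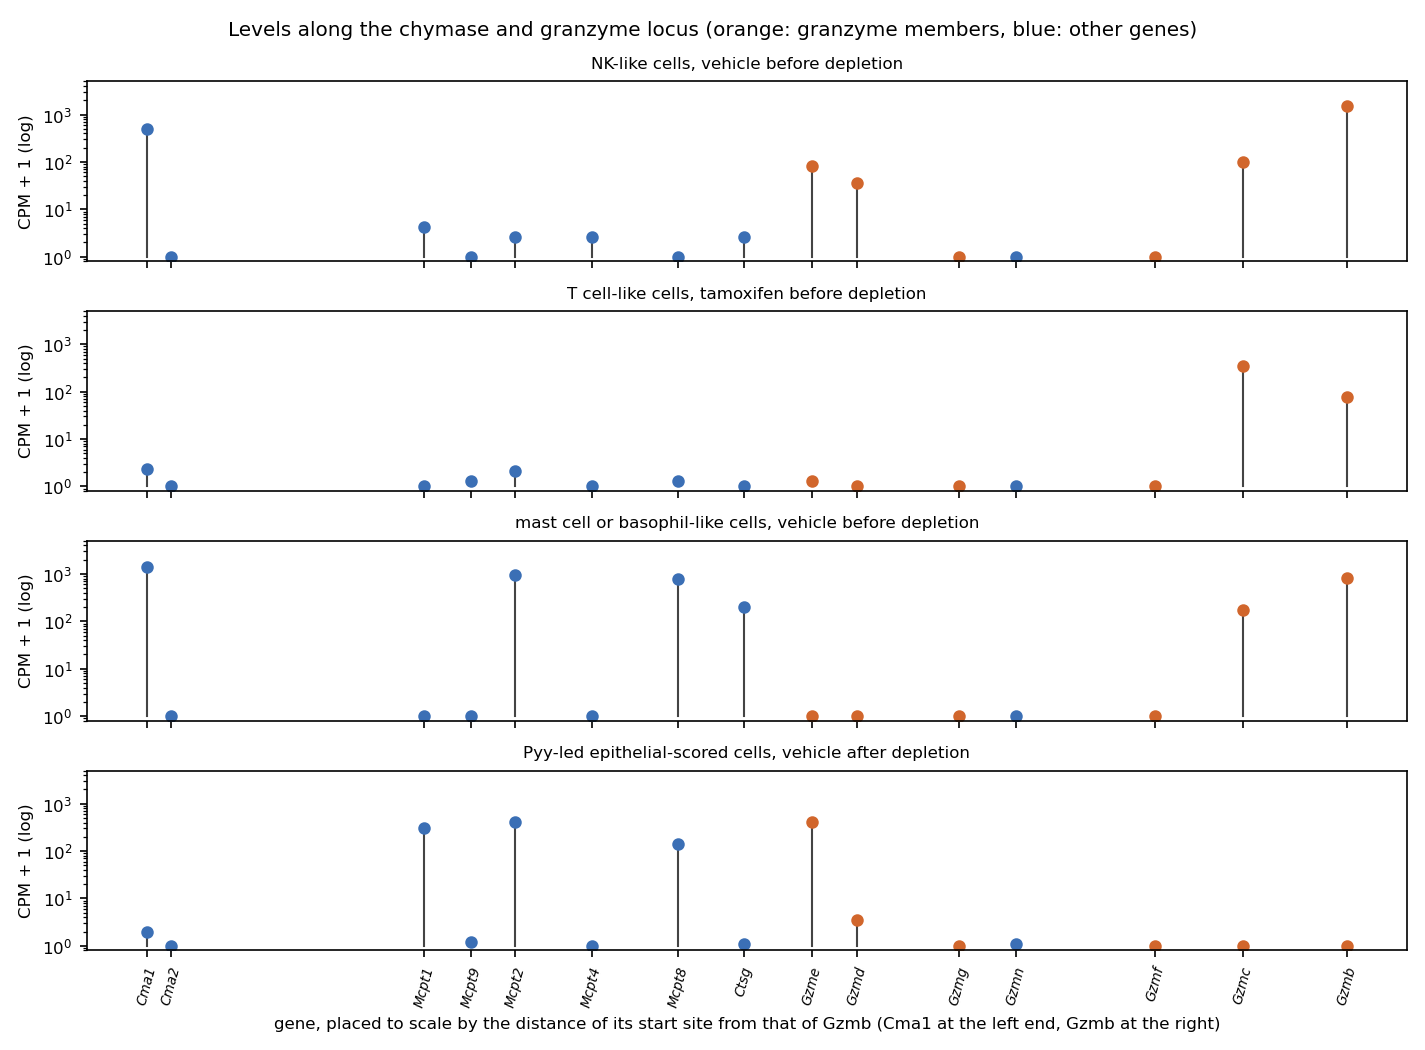
Level (CPM + 1, log axis) of the 15 genes of the chymase and granzyme cluster in selected classes, each gene placed to scale by the distance of its start site from that of Gzmb. NK-like cells are high at both ends (Cma1 at 501 CPM and Gzmb at 1493 CPM in the vehicle library), and the Pyy-led cells at Gzme, Mcpt8, Mcpt2 and Mcpt1.

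Gzmd, the nearest relative of Gzme in sequence, had 14, 97, 3 and 12 UMIs in the epithelial-scored cells of the vehicle library before and after depletion and the tamoxifen library before and after depletion. The last 500 bases of the Gzme and Gzmd transcripts shared 68 of 451 windows of 50 bases. In all, 82 windows of Gzme and 93 of Gzmd were found in another granzyme gene or in Mcpt1, Mcpt2 or Mcpt8. How reads from those windows were assigned is not given in the sources used here, so the levels of both genes are uncertain to that extent. Some Gzmd UMIs lay in the same cell as the highest Gzme count, with 19 Gzmd and 251 Gzme UMIs. Gzmf had 1 or 2 UMIs per library. For Gzmb, Gzmc, Gzma, Gzmk and Gzmm no window was shared with another of the granzyme and Mcpt genes compared. Other transcripts were not searched.

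Gzmm was low, at 3.90, 2.95, 2.86 and 2.95 CPM in the named epithelial-like cells of the 4 libraries. It was at 4.17 and 3.84 CPM in T cell-like cells and 4.96 CPM in fibroblast-like vehicle cells before depletion. Within T cell-like cells it was at 10.1 CPM (14 UMIs) and 7.83 CPM (9 UMIs) in the Cd8 gate. The Cd4 gate had 0.47 and 1.31 CPM. In NK-like cells it had 4 and 0 UMIs. Its UMIs came 1 to 5 per epithelial cell, with 302 of 5771 vehicle cells and 299 of 6113 tamoxifen cells after depletion having any. Its ratio was -0.00 (-0.22 to 0.22) after depletion. Gzmk was seen in endothelial-like cells at 6.89 CPM before and 4.35 CPM after depletion in the vehicle libraries, with 16 and 7 UMIs. Tamoxifen endothelial-like cells had 0 and 1 Gzmk UMIs. Gzma was also seen in a few vehicle cells of other classes before depletion, with 24 UMIs in plasmacytoid dendritic cell-like, 191 in dendritic cell-like and 42 in fibroblast-like cells, and no UMI in the tamoxifen library. Without the highest cell the vehicle levels went from 31.0 to 2.59 CPM, from 20.6 to 13.4 CPM and from 14.9 to 0.35 CPM.

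By Pearson correlation of log2(CPM + 1) over 30 class and library profiles before depletion, the genes most like Gzma were Klrb1c (r = 0.93), Prf1 (0.91), Klra9 (0.91), Ncr1 (0.89) and Klrb1a (0.89), 4 of which encode NK receptors. Those most like Gzmb were Eomes (0.96), Sytl3 (0.95), Nkg7 (0.94), Fasl (0.94) and Cd160 (0.93). Those most like Gzme were Serpinb5 (0.89), Ntm (0.87), Hgfac (0.87), Cyp3a13 (0.87) and Ivl (0.87), of which Ivl encodes the squamous protein involucrin. The profiles share libraries and depth, and these values only describe likeness.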

How the data were processed

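Single-cell 3′ RNA was measured in 4 libraries (10x Genomics 3′ chemistry, version 3, per the labels' protocols), 1 per group. What was deposited are raw UMI counts for each gene in each barcode. The matrices name Cell Ranger 7.0.1, per the file headers, while the submitters' processing notes name Cell Ranger 7.2.0 and mm10. The labels call the vehicle corn oil in 1 place and ethanol in another. Libraries held 92644997 to 144994771 UMIs. Intervals and limits for counts of 0 (3 counts) cover counting error only.

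A barcode was kept with 200 or more genes and no more than 20% of UMIs from mitochondrial genes. Scrublet (scanpy 1.11.5, expected rate 0.06) called 188, 1, 1 and 0 doublets with its automatic threshold and had not worked, so cells scoring 0.25 or more were removed (116 to 225 per library). All cells were clustered together on 2000 variable genes, 40 principal components and 15 neighbours (Leiden, resolution 1, igraph 0.11.9), with the members and Gzmn left out of the variable genes. A cluster took the name of the class with the highest markers if it had 20 cells, 3 markers each in 10% of its cells, and no more markers of another class than of its own among its 10 leading genes. The Trdc-led cluster scored highest for innate lymphoid markers and was left unnamed for its leading genes, a decision made after the data were seen. UMIs were summed per class and library and scaled to CPM. Shares have Clopper-Pearson intervals, CPM values exact Poisson ones and ratios exact binomial ones conditional on the summed UMIs. The size rule (10 CPM in either library, 2-fold with a pseudocount of 1 CPM) is no test. It was run on simulated class totals that varied by counting error alone. That run cannot show how the rule behaves where few cells hold the UMIs.

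The members, the gene lists and the rules were chosen with earlier results of these data known. The named genes are the members, Gzmn, the listed genes, the 5 genes most like Gzma, Gzmb and Gzme, and 10 genes of Gzme-positive cells. The mast cell and basophil list was added after the data were seen. Sequences are from RefSeq (GRCm38.p6) and positions from GENCODE M21 (GRCm38). Promoters were aligned with biopython 1.88. Alternatives were a minimum of 1000 genes per cell, doublets, clustering, gating, scaling (edgeR 4.0.16 TMM), pseudocount, fold size and thinning.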

Additional observations from a re-analysis of the deposited data

Results flagged for a closer look

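Differences between 2 effects of the same contrast are listed here where the 2 ratios had opposite signs and neither counting interval spanned 0. With 1 library per group none of these differences was tested. The Gzmb ratio of tamoxifen over vehicle was 1.58 in T cell-like and -0.37 in NK-like cells, 1.95 apart on the log2 scale, and 1.08 in the Trdc-led cluster, 1.45 above that of NK-like cells. The latter ratio became -0.21 without the highest cell of each library. The Gzmc ratio was 3.64 in T cell-like, 6.30 in Trdc-led and -6.63 in NK-like cells, or 10.27 and 12.93 apart. The NK-like value is set against 0 UMIs and depends on the pseudocount, and all of it comes from 1 vehicle cell.

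For Gzme after depletion, the ratio of the named epithelial-like class (-0.83) was 0.13 in the Muc5b-led and 0.31 in the Pyy-led cluster, differences of -0.96 and -1.14. In the Pyy-led cluster the ratio before depletion (-0.34) differed by -0.64 from that after it, although both pairs are portions of the same suspensions.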

How the results depend on the processing

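Of 164 alternative values for the main results, 80 stayed within the counting interval (or within 1.5 times for a count) and 84 moved. A reversal was defined only for the log2 ratios of Gzme and Gzmb, of which 0 reversed. Of 104 values for single genes, 58 stayed and 46 moved. Values are given in the order vehicle before, vehicle after, tamoxifen before and tamoxifen after depletion.

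The Gzme level in epithelial-like cells (46.4, 80.7, 25.3 and 44.8 CPM) became 80.0, 105, 47.1 and 85.3 with at least 1000 genes per cell, 83.9, 113, 56.6 and 87.8 with doublet-scored cells kept, 53.3, 67.4, 14.4 and 36.1 with the members left in the clustering, 38.85, 84.8, 23.15 and 42.1 at Leiden resolution 2, 82.7, 109.8, 55.3 and 90.9 in cells gated on marker UMIs, and 34.8, 61.3, 14.8 and 31.3 as a mean over cells. Counting in the unnamed clusters, chosen after seeing the data, gave 81.1, 108, 53.55 and 88.8. The share of Gzme UMIs in the class (49.0%, 63.9%, 38.0% and 41.6%) became 94.3%, 94.0%, 78.5% and 89.25% with 1000 genes, 93.4%, 95.2%, 91.0% and 88.9% with doublets, 53.1%, 50.3%, 20.2% and 32.5% with members in the clustering, 40.5%, 66.4%, 33.1% and 37.4% at resolution 2, 77.9%, 99.35%, 77.15% and 99.5% when gated, and 96.7%, 99.7%, 94.8% and 99.97% with the unnamed clusters.

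The Gzme ratio before depletion (-0.85) became -0.56 with doublets, -1.82 with members in the clustering, -0.72 at resolution 2, -0.57 when gated, -0.59 with the unnamed clusters, -1.18 as a mean over cells and -0.74 without the highest cell of each library. After depletion (-0.83) it became -0.30 with 1000 genes, -0.36 with doublets, -0.99 at resolution 2, -0.27 when gated, -0.28 with the unnamed clusters and -0.95 as a mean over cells. It stayed negative in each. The Gzmb ratio in NK-like cells (-0.37) became -0.70 when gated and -0.56 as a mean over cells.

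The members apart in NK-like cells (3) numbered 0 with 1000 genes per cell, 0 without the highest cell and 5 with no CPM minimum. Those in T cell-like cells (3) numbered 1 with doublets kept. In epithelial-like cells before depletion (0) there was 1, Gzme, with the members in the clustering or as a mean over cells. Members highest in NK-like cells of the vehicle library numbered 3 with 1000 genes per cell, against 5. Thinned to 1000 UMIs, Gzma was seen in 86.3% of vehicle NK-like cells (92.6% at 2000). Without thinning, Gzmb was seen in 4.23% and 11.65% of T cell-like cells (2.14% and 7.74% thinned). Gzme was seen in 17.2%, 22.1%, 9.81% and 11.6% of epithelial-like cells without thinning (3.91%, 6.01%, 2.40% and 3.22% thinned), and in 3.81%, 1.45% and 2.13% of the last 3 at 1000 UMIs. The cause of these shifts was not tested. No paired analysis was possible because each group holds 1 library. Depth limits the small classes: in NK-like cells a limit of 3 counts is 4.99 CPM in the vehicle and 8.48 CPM in the tamoxifen library.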
